A study of Mus musculus with 17 samples.

Results

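The genes described here were p53 and 9 of its direct transcriptional targets: Trp53, Mdm2, Ccng1, Trp53inp1, Phlda3, Eda2r, Zmat3, Aen, Sesn1 and Plk2. These 10 genes, of 43430 in each deposited table, were chosen by name with earlier results of these data known. They were matched by Ensembl ID. RNA-seq was done on 17 libraries of alveolar epithelial type 2 (AT2) cells, the surfactant-making cells of the lung alveolus, sorted by flow cytometry from C57BL/6J mice aged 2 months. The first experiment compared 4 libraries made 24 h after ISRIB, a small molecule that blocks the integrated stress response by acting on eIF2B, with 4 made after vehicle, all from mice labelled naive. Those libraries were poly(A)-selected from 3 ng of RNA with a NEBNext Ultra kit. The second experiment compared 5 libraries made 14 days after bleomycin, a DNA-breaking drug used to model lung fibrosis, with 4 from naive mice. These were total-RNA libraries from 0.35 ng of RNA, made with the SMARTer Stranded Pico v2 kit. The labels give vehicle as the treatment of both total-RNA groups, and saline in their titles. They give no dose of either drug. The labels do not say which libraries came from separate animals, so p-values measure the spread between these libraries, which may be technical in part.

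p53 is a transcription factor that is held at a low level by the ubiquitin ligase Mdm2 and is stabilised when DNA is damaged or cells are stressed. It binds DNA as a tetramer, at a pair of half-sites, and raises transcription of genes for cell-cycle arrest, DNA repair, apoptosis and metabolic control. Mdm2 is itself one of these genes, which closes a negative feedback loop. Much of the control of p53 acts on the protein, which RNA-seq does not measure. In the lung epithelium, p53 target genes are known to be active in cells that pass from the AT2 to the alveolar type 1 state after injury.

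Total counts per library ran from 10493574 to 15727139 in the poly(A) table and from 3295257 to 6333166 in the total-RNA table, and depth limits what the rarer of these genes can show. Levels are given as CPM (counts scaled to a common effective library size), within 1 kit only. AT2 markers were abundant in every library: their summed level was at least 222400 CPM in the poly(A) libraries and at least 56190 CPM in the total-RNA libraries. The 10 macrophage markers summed to 6.17 to 9.05 CPM in the poly(A) libraries, where Csf1r and Cd68 were the 2 that passed the filter and neither was called. C1qa was at 0 in every library of both tables. In the poly(A) libraries airway markers summed to 2366 to 4288 CPM. Endothelial markers summed to 26.9 to 39.3 CPM there, and fibroblast markers to 11.8 to 25.5 CPM. Ribosomal RNA and genes that take up its reads made up 15.8 to 29.5% of each total-RNA library, and mitochondrial genes 7.21 to 10.9%, with overlap between the groups. No library was left out.

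The promoter sequences are shown first because the 10 genes are grouped by a shared DNA-binding regulator. RefSeq (GRCm38.p6) windows of 300 bases around the transcription start were found for 8 of the 10 genes, 10 windows in all. Trp53inp1 and Zmat3 are named only. Each was searched for the consensus of 1 p53 half-site, 10 bases long, with no mismatch. The consensus is its own reverse complement, so 1 search reads both strands. A match was found in 6 of the 10 windows, from 5 genes (Aen, Ccng1, Mdm2, Sesn1 and Trp53), against 8.36% of all 32851 windows. A pair of adjacent half-sites was allowed at most 3 mismatches in all, with none in the central C(A/T)(A/T)G of either. Such a pair was found for 2 genes, in both Aen windows and in the Trp53 window, against 0.572% of all windows. The 2 Aen windows overlap and hold the same site, so that site is counted in each window. The pair includes the single match in both genes. Positions are counted from the RefSeq transcript start, which for Ccng1, Sesn1 and Aen is not the GENCODE gene start given below. The match begins at -185 in Ccng1, -186 in Mdm2, -75 in Trp53 and -173 in 1 of the 2 Sesn1 windows (the other has none). The Sesn1 window with the match, chr10:41887189-41887488, lies inside the GENCODE span of the gene. In Aen the match begins at 11 from the first of its annotated starts and at -121 from the other. A match is a description of letters, not a binding site, and the data hold no measure of p53 binding. The bases upstream of Ccng1 and Mdm2 are given because both code for regulators of p53 and differed in their response to bleomycin. Those of Phlda3 are given because it had the largest log2 fold change of the 9 genes tested after bleomycin and no match in its window. Capitals mark the exact half-site match, written 5′ to 3′ on the gene's strand.
Ccng1, chr11:40755312-40755536, minus strand: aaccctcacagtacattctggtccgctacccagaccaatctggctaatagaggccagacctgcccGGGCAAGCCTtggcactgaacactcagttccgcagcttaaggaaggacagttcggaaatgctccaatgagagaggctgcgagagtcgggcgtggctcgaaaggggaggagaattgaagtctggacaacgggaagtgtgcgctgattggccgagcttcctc
Mdm2, chr10:117710759-117711008, minus strand: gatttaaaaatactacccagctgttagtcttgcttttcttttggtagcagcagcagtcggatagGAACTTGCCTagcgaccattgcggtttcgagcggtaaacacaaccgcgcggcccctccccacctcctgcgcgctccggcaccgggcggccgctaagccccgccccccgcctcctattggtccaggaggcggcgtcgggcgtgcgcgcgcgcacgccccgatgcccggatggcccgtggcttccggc
Phlda3, chr1:135765835-135766084, plus strand: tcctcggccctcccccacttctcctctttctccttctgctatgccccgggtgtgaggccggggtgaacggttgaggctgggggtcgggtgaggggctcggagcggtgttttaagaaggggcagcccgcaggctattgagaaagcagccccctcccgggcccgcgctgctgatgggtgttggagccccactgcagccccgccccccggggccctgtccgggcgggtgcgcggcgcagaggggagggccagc
The adjacent pairs of Aen and Trp53 are given as the closest matches to a full site, with capitals for the exact half-site and 3 mismatches in each pair.
Aen, chr7:78895937-78895956, plus strand: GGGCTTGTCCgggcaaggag
Trp53, chr11:69580284-69580303, plus strand: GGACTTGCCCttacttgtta

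After bleomycin, 5 of the 10 genes rose: Phlda3, Ccng1, Aen, Zmat3 and Trp53inp1. None fell. For comparison, 11.2% of the 11223 genes tested were called higher and 9.31% lower, at an adjusted p under 0.05 by the edgeR quasi-likelihood test with Benjamini-Hochberg adjustment over all genes tested. In the same 5 of the 9 genes tested the naive and bleomycin libraries did not overlap, against 19.7% of all genes tested. Eda2r, at 0 in all 4 naive libraries, was below the filter on low counts and is described apart. Trp53 itself, Mdm2, Sesn1 and Plk2 did not pass the test. The median log2 fold change of the 9 genes tested was 0.68, against 0.0026 over all genes tested. Phlda3 passed the filter only through the bleomycin libraries, so the count and the median are descriptions.

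**Figure D1:**
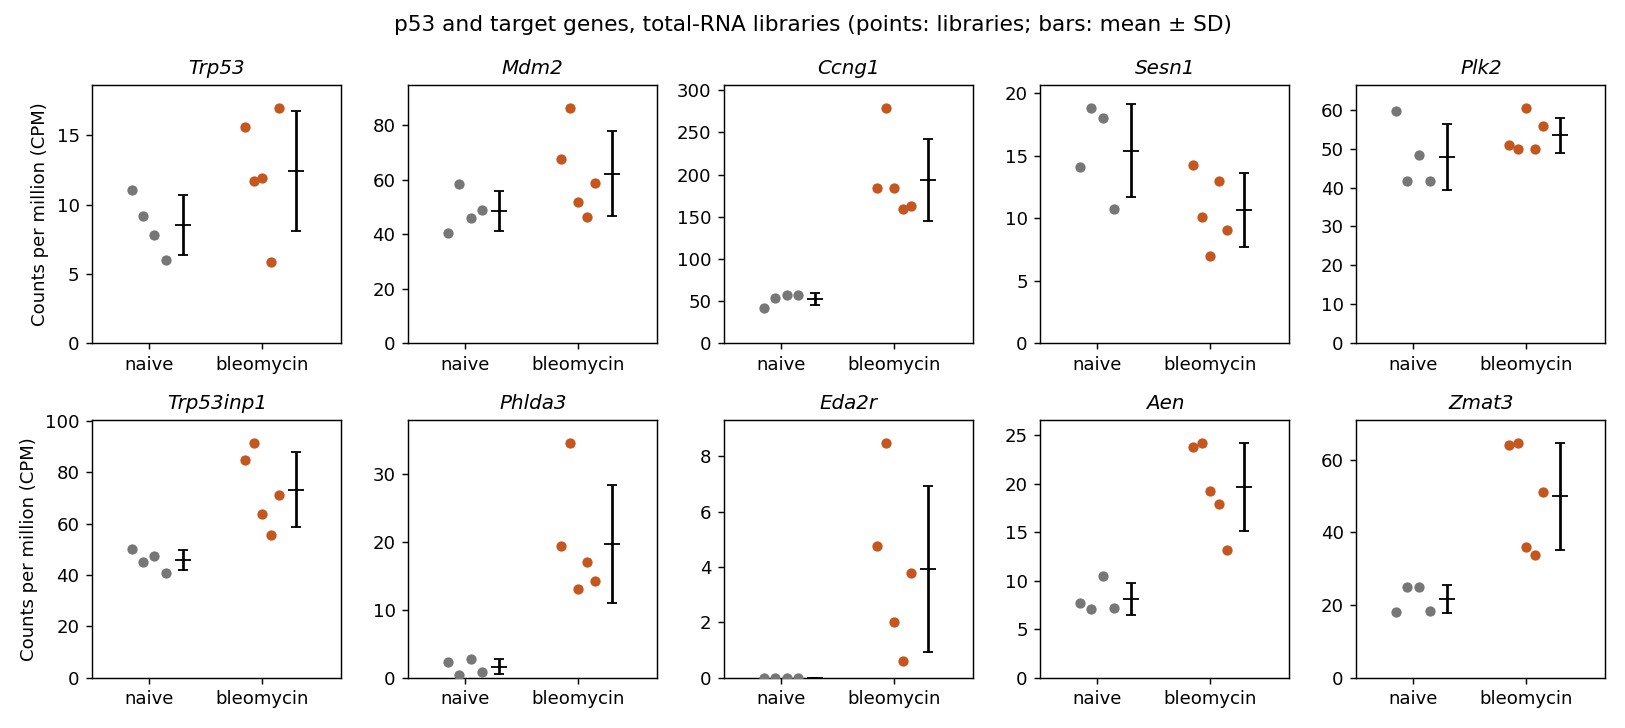
Level of each of the 10 genes in CPM (vertical axes, linear from 0, scaled per gene) in the 4 naive and 5 bleomycin total-RNA libraries. Each point is a library, in order of its number from left to right, and the bar beside it is the mean ± SD. Bleomycin replicate 2 is the highest bleomycin library for 7 of the 10 genes, and Eda2r is at 0 in every naive library.

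Trp53 (ENSMUSG00000059552, chromosome 11, 69580359 to 69591873, GRCm38) codes for p53. It was at 11.1, 9.19, 7.81 and 5.96 CPM in naive replicates 1 to 4. In bleomycin replicates 1 to 5 it was at 15.6, 11.7, 11.9, 5.88 and 16.9 CPM. The groups overlapped, and bleomycin replicate 4 was below every naive library. The log2 fold change was 0.56 (SE 0.30, 95% interval -0.07 to 1.19), with an edgeR adjusted p of 0.203. Without bleomycin replicate 4 it was 0.73 with an adjusted p of 0.0461, the only 1 of the 15 alternative settings in which it passed.

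Mdm2 (ENSMUSG00000020184, chromosome 10, 117688875 to 117710758) was at 40.6, 58.3, 45.9 and 48.9 CPM in the naive libraries. After bleomycin it was at 67.7, 86.3, 51.7, 46.4 and 58.8 CPM. The upper bleomycin libraries, replicates 1, 2 and 5, lay above all naive libraries, and the other two lay among them. Its log2 fold change was 0.36 (SE 0.17, 95% interval -0.00066 to 0.71), with an edgeR adjusted p of 0.151 that stayed above 0.05 in all 15 alternatives.

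Of Ccng1, Sesn1 and Plk2, only Ccng1 was called. Ccng1 (ENSMUSG00000020326, chromosome 11, 40748552 to 40755311) codes for cyclin G1, an atypical cyclin that recruits a phosphatase to Mdm2. It was at 41.6, 52.8, 56.4 and 56.9 CPM in the naive libraries. It was at 185, 279, 184, 159 and 162 CPM in the bleomycin libraries. Every bleomycin library was far above every naive library, and replicate 2 stood above the other 4. Ccng1 rose by 1.90 on the log2 scale (SE 0.17), a 3.73-fold rise, with an edgeR adjusted p of 6.44e-07. Per kilobase of exon, Ccng1 was the most abundant of the 10 genes in all 4 groups. It was at 14.8 ± 2.03 RPKM (SD, n = 4) in naive and 55.2 ± 13.9 RPKM (SD, n = 5) in bleomycin libraries.

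Sesn1 (ENSMUSG00000038332, chromosome 10, 41809935 to 41908424) codes for a sestrin, a stress protein that restrains the growth kinase complex mTORC1. It was at 14.1, 18.8, 18.0 and 10.7 CPM in naive libraries. It was at 14.3, 10.1, 6.97, 12.99 and 9.03 CPM in bleomycin libraries. The groups overlapped, and this was the only gene of the 9 tested with a negative log2 fold change, -0.56 (SE 0.26, edgeR adjusted p 0.138). Its 95% interval, -1.10 to -0.015, lay below 0. Plk2 (ENSMUSG00000021701, chromosome 13, 110395046 to 110400844), a polo-like kinase of stressed and post-mitotic cells, was at 59.7, 41.7, 48.3 and 41.7 CPM in naive libraries. It was at 51.1, 50.0, 60.4, 49.8 and 55.9 CPM in bleomycin libraries. Its groups overlapped, and the log2 fold change was 0.17 (SE 0.14, 95% interval -0.13 to 0.46, edgeR adjusted p 0.438).

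Phlda3 (ENSMUSG00000041801, chromosome 1, 135766119 to 135769136) codes for a small lipid-binding protein that competes with the survival kinase Akt at the membrane. It was at 2.35, 0.427, 2.70 and 0.894 CPM in naive libraries. It was at 19.3, 34.5, 13.01, 17.0 and 14.3 CPM in bleomycin libraries. The lowest bleomycin library was several times the highest naive library. Phlda3 rose by 3.68 on the log2 scale (SE 0.44) with an edgeR adjusted p of 1.33e-05. The naive side rests on 21 counts over 4 libraries against 493 over 5, a ratio of 13.3 (95% interval 8.60 to 21.7 for counting error only). Without bleomycin replicate 2 the ratio was 10.4.

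Eda2r (ENSMUSG00000034457, chromosome X, 97333840 to 97377216) codes for a tumour necrosis factor family receptor of an ectodysplasin isoform. It had 0 counts in each naive library, and 18, 47, 13, 2 and 24 counts in bleomycin replicates 1 to 5. All 5 bleomycin libraries thus held reads and no naive library did. Against a limit of 3 counts over the naive group (0.209 CPM), the bleomycin level was at least 19.6-fold higher, or at least 13.8-fold without replicate 2. Replicate 4, with 2 counts, was the lowest. The filter kept the gene out of the main test. Without the filter its edgeR adjusted p was 3.15e-07, and by DESeq2 it was 1.21e-05. With any 1 naive library left out the gene passed the filter, and its edgeR adjusted p was larger, 0.0048 to 0.0063.

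Aen (ENSMUSG00000030609, chromosome 7, 78895854 to 78911209) codes for a nuclease that takes part in the breakdown of DNA during apoptosis. It was at 7.71, 7.05, 10.5 and 7.15 CPM in naive libraries. It was at 23.8, 24.2, 19.2, 17.9 and 13.1 CPM in bleomycin libraries. Replicate 5 was the nearest bleomycin library to the naive range, and it lay above it. Aen rose by 1.28 on the log2 scale (SE 0.24), with an edgeR adjusted p of 0.00109.

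Trp53inp1 (ENSMUSG00000028211, chromosome 4, 11156431 to 11174379) codes for a stress-induced protein that promotes p53 activity and autophagy. It was at 50.0, 45.1, 47.4 and 40.8 CPM in naive libraries. It was at 84.6, 91.3, 63.8, 55.4 and 70.9 CPM in bleomycin libraries. The groups did not overlap, although the gap between bleomycin replicate 4 and naive replicate 1 was small. The log2 fold change was 0.68 (SE 0.15), the smallest of the 5 that rose, with an edgeR adjusted p of 0.00357.

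Zmat3 (ENSMUSG00000027663, chromosome 3, 32334792 to 32366014) codes for a zinc-finger RNA-binding protein that acts on splicing and mRNA stability. It was at 18.1, 25.0, 24.9 and 18.5 CPM in naive libraries. It was at 64.0, 64.6, 36.1, 33.7 and 51.2 CPM in bleomycin libraries. Replicates 1 and 2 were the highest and replicates 3 and 4 the lowest of the bleomycin group, all above the naive range. Zmat3 rose by 1.20 on the log2 scale (SE 0.21), with an edgeR adjusted p of 5.28e-04. Over the 15 alternative settings the 5 genes kept their calls, with largest adjusted p-values of 1.17e-05 for Ccng1, 0.00328 for Phlda3, 0.00421 for Zmat3, 0.00718 for Aen and 0.0220 for Trp53inp1.

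The order of the genes by level per kilobase differed between the groups. In naive libraries Ccng1, Plk2 at 10.7 ± 1.89 RPKM and Mdm2 at 9.53 ± 1.46 RPKM led (SD, n = 4), and the ranges of neighbours in that order overlapped. Phlda3 stood ninth in naive libraries, at 1.02 ± 0.707 RPKM. In bleomycin libraries it stood second, at 12.6 ± 5.55 RPKM (SD, n = 5), within the range of Mdm2 at 12.2 ± 3.08 RPKM. Sesn1 went from the fifth to the ninth place, and Eda2r was last in both groups.

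Marker levels differed between the same libraries. Of all genes tested, 11.2% were called higher and 9.31% lower. Of 10 AT2 markers, Sftpd and Napsa rose, and the summed level was 93820 to 103200 CPM in naive and 56190 to 104600 CPM in bleomycin libraries. All 10 markers of transitional epithelium rose, from a summed 493.3 to 557.3 CPM in naive libraries to 995.5 to 1396 CPM after bleomycin. Of 8 alveolar type 1 markers 6 rose, with sums of 1327 to 1553 CPM and 1984 to 2525 CPM. Of 15 proliferation markers 13 were tested and 11 rose, with sums of 74.2 to 115.8 CPM and 407.7 to 662.3 CPM. Of 8 fibroblast markers 3 were tested and all 3 rose (the collagens Col1a1, Col1a2 and Col3a1). The sums over all 8 were 3.88 to 10.4 CPM and 18.1 to 116.6 CPM, while Lum was at 0 throughout. Cdh5, of 6 endothelial markers (4 tested), and Foxj1, of 7 airway markers (5 tested), also rose. The 3 collagens, Cdh5, Foxj1, Pdpn, Cldn4, Tnip3, Cdk1, Birc5, Rrm2, Kif11, Tpx2 and Mcm3 passed the filter only through the bleomycin libraries. The counts of markers that rose are therefore descriptions. The endothelial sums were 15.8 to 23.7 and 16.9 to 54.2 CPM. The airway sums were 447.7 to 906.5 and 479.3 to 916.0 CPM. Only 2 of 10 macrophage markers passed the filter and neither rose, with sums of 6.41 to 10.1 and 6.14 to 11.6 CPM, and C1qa and Marco were at 0 throughout. Lymphocyte and neutrophil markers were all below the filter, with sums of at most 1.68 and 1.81 CPM. Bleomycin replicate 2, the highest bleomycin library for 7 of the 10 genes, also had the highest transitional, proliferation and fibroblast sums. Its AT2 sum was 67520 CPM, against 56190 CPM in bleomycin replicate 1 and 85250 to 104600 CPM in bleomycin replicates 3 to 5. Bleomycin replicate 4 was the lowest for 7 of the 10. Its transitional, proliferation and fibroblast sums were 1229, 562.5 and 23.8 CPM, none of them the lowest of the bleomycin group. The part of these markers in the results was not tested, and in sorted bulk RNA a change in the share of cells and a change in RNA per cell cannot be told apart.

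**Figure D2:**
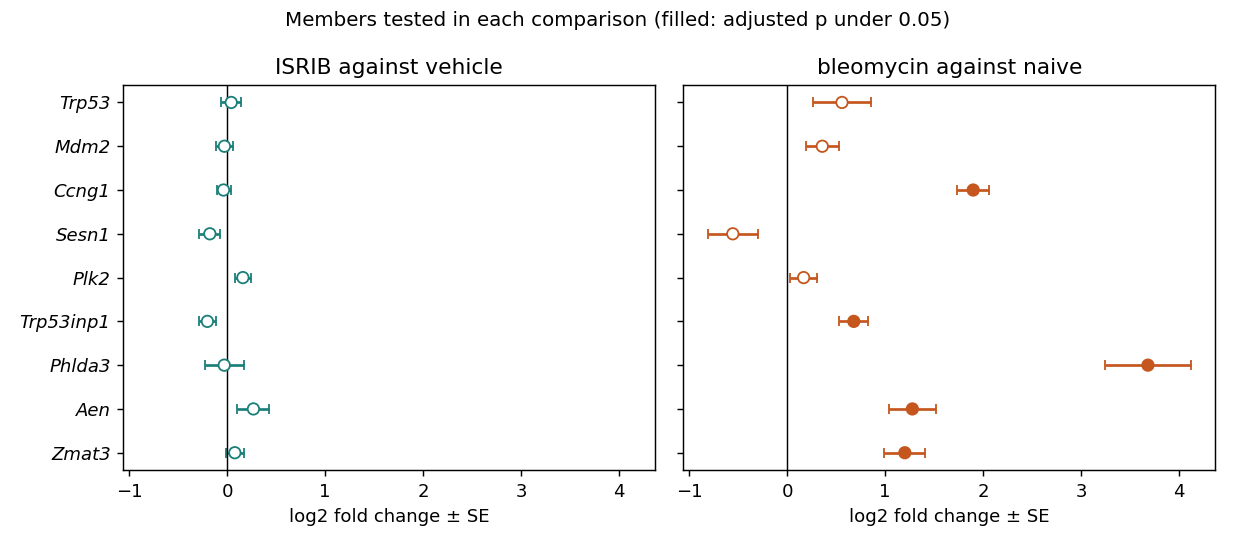
Log2 fold change ± SE (horizontal axes, the same in both panels) of the 9 genes tested in each comparison, ISRIB against vehicle on the left and bleomycin against naive on the right, with filled points for an adjusted p under 0.05. After bleomycin 5 points are filled, from 0.68 for Trp53inp1 to 3.68 for Phlda3; after ISRIB none is, and all lie between -0.20 and 0.27.

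A day after ISRIB, none of the 9 genes tested was called, against 2.2% of the 12054 genes tested by the edgeR quasi-likelihood test. At an unadjusted p under 0.05 there was 1, Trp53inp1, beside 1934 of the 12054 genes, and DESeq2 called 0. In none of the 9 were the vehicle and ISRIB libraries apart, against 8.65% of all genes tested. The median log2 fold change was -0.029, against -0.00014 over all genes tested. These values concern the poly(A) libraries, and no test was made across the kits. Of the marker lists, only the transitional gene Krt19 and the proliferation gene Mcm6 were called, both lower. The transitional sums were 639.2 to 768.3 CPM after vehicle and 559.8 to 665.5 CPM after ISRIB, and the proliferation sums 103.5 to 208.6 and 112.6 to 145.0 CPM. The airway sums were 3830 to 4288 CPM after vehicle and 2366 to 4164 CPM after ISRIB, lowest in ISRIB replicate 4.

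**Figure D3:**
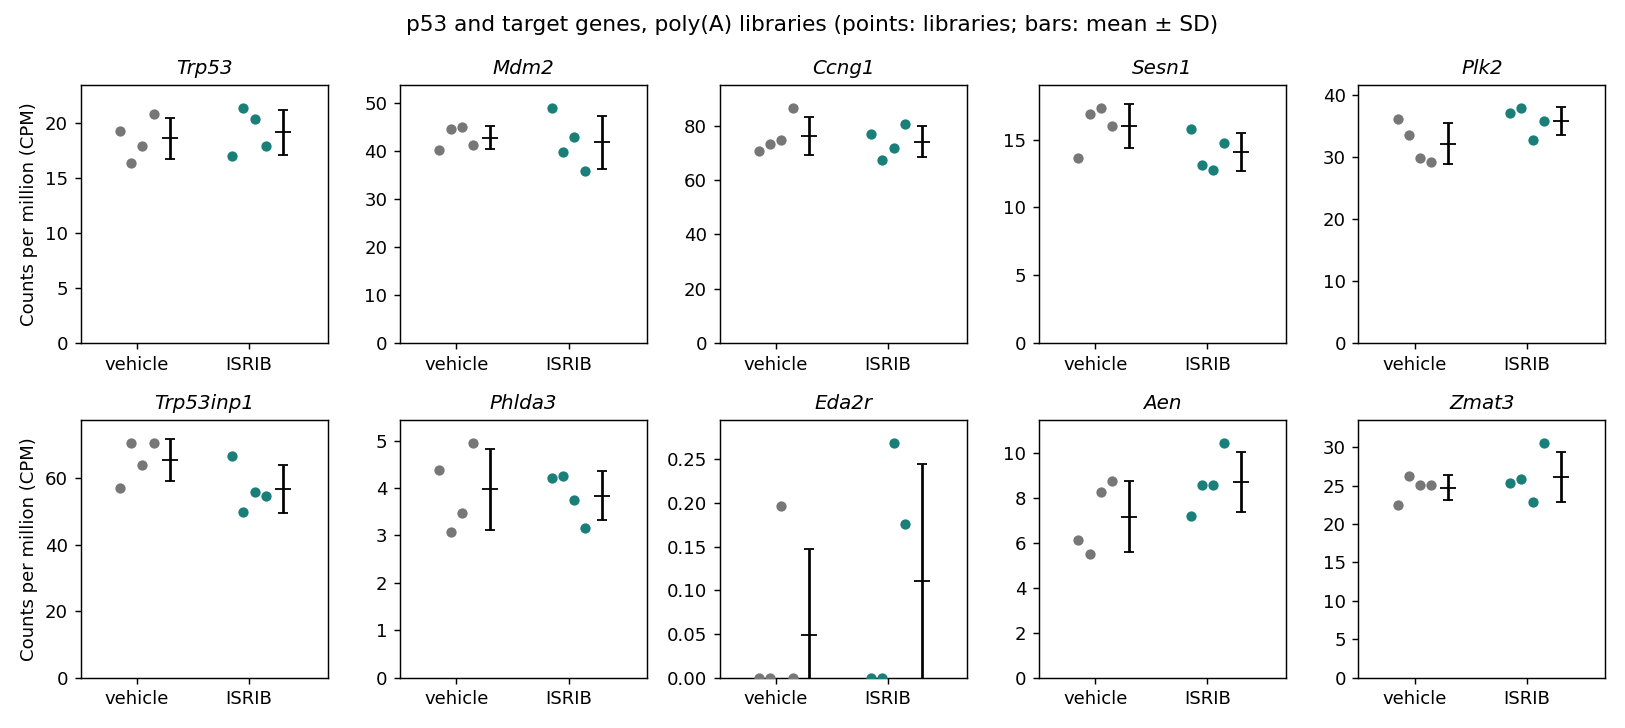
Level of each of the 10 genes in CPM (vertical axes, linear from 0, scaled per gene) in the 4 vehicle and 4 ISRIB poly(A) libraries. Points are libraries in order of their number, with the mean ± SD beside them. The groups overlap in every panel, and Eda2r has reads in 3 of the 8 libraries.

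Trp53 was at 19.3, 16.4, 17.9 and 20.8 CPM in vehicle replicates 1 to 4. It was at 17.0, 21.3, 20.3 and 17.9 CPM in ISRIB replicates 1 to 4. The 2 ranges nearly coincided, and the log2 fold change was 0.04 (SE 0.10, 95% interval -0.17 to 0.25, edgeR adjusted p 0.900). Mdm2 was at 40.2, 44.5, 45.0 and 41.2 CPM after vehicle. It was at 48.8, 39.7, 42.9 and 35.8 CPM after ISRIB. The ISRIB libraries held both the highest and the lowest value, and the log2 fold change was -0.03 (SE 0.09, 95% interval -0.21 to 0.15, edgeR adjusted p 0.918).

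Ccng1 was at 70.6, 73.2, 74.6 and 86.4 CPM after vehicle. It was at 76.7, 67.4, 71.9 and 80.5 CPM after ISRIB. Its log2 fold change was -0.04 (SE 0.07, edgeR adjusted p 0.862), and its 95% interval of -0.19 to 0.11 was the narrowest of the 9. Sesn1 ran from 13.7 to 17.3 CPM after vehicle and from 12.8 to 15.8 CPM after ISRIB, with a log2 fold change of -0.18 (SE 0.11, edgeR adjusted p 0.439). Plk2 ran from 29.1 to 36.0 CPM and from 32.7 to 37.8 CPM, with a log2 fold change of 0.16 (SE 0.08, edgeR adjusted p 0.349).

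Trp53inp1, the gene with the smallest p of the 9, was at 57.1, 70.5, 63.8 and 70.4 CPM after vehicle. It was at 66.7, 49.7, 55.7 and 54.6 CPM after ISRIB. ISRIB replicates 2 to 4 were below all vehicle libraries and replicate 1 was among them. The log2 fold change was -0.20 (SE 0.09) with an edgeR adjusted p of 0.258, and adjusted p-values ran from 0.0706 to 0.489 over 14 alternatives.

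Phlda3 was at 4.38, 3.08, 3.47 and 4.95 CPM after vehicle. It was at 4.21, 4.24, 3.76 and 3.16 CPM after ISRIB. The groups overlapped in full, with a log2 fold change of -0.03 (SE 0.20) and the widest 95% interval of the 9, -0.45 to 0.39 (edgeR adjusted p 0.963). Aen had the largest positive log2 fold change, 0.27 (SE 0.16, edgeR adjusted p 0.448), with 5.52 to 8.73 CPM after vehicle and 7.22 to 10.4 CPM after ISRIB. Zmat3 ran from 22.5 to 26.2 CPM and from 22.8 to 30.5 CPM, with a log2 fold change of 0.08 (SE 0.09, edgeR adjusted p 0.750). Eda2r had 3 counts in all vehicle libraries and 5 in all ISRIB libraries, a ratio of 1.58 with a counting interval of 0.307 to 10.2. At this depth no difference in Eda2r was detectable. Per kilobase, Ccng1 led in both groups, at 21.7 ± 1.99 RPKM after vehicle and 21.1 ± 1.62 RPKM after ISRIB (SD, n = 4), and the order of all 10 genes was the same in both.

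A list of 31 other p53 targets gave the wider set. Whether p53 controls each of them in these mouse cells was not tested. After bleomycin 29 were tested, 11 rose and 1 fell, beside 11.2% and 9.31% of all genes tested, and the median log2 fold change was 0.30 against 0.0026. Pidd1 and Pmaip1 were below the filter. Of the 11, Fas, Gtse1, Psrc1 and Tnfrsf10b passed the filter only through the bleomycin libraries. Cdkn1a, which codes for the cyclin-dependent kinase inhibitor p21, was at 17.1, 18.2, 12.9 and 18.8 CPM in naive and at 107, 110.4, 71.5, 57.9 and 62.9 CPM in bleomycin libraries. The groups did not overlap, and the log2 fold change was 2.29 (SE 0.21, edgeR adjusted p 9.95e-07). Its exons overlap 273 bases of an opposite-strand gene model, and whether reads were counted by strand is not stated in the labels.

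Psrc1, a mitotic spindle protein, was at 0.335, 0.214, 1.50 and 0.894 CPM in naive and at 24.3, 12.1, 4.03, 10.8 and 7.28 CPM in bleomycin libraries. Its ratio of 15.1 (95% interval 8.07 to 31.8 for counting error) rests on 10 naive and 266 bleomycin counts (log2 fold change 3.97, SE 0.62, edgeR adjusted p 1.75e-04). Gtse1, a protein of the G2 and S phases that restrains p53, had a log2 fold change of 2.08 (SE 0.58, edgeR adjusted p 0.0150). Fas, the death receptor, had 1.64 (SE 0.46, edgeR adjusted p 0.0144). Both Psrc1 and Gtse1 are known to be cycle-linked genes, and the proliferation sums above moved with them; their part was not tested. The gene that fell was Ddb2, which recognises ultraviolet damage in DNA: it was at 18.8, 22.9, 21.9 and 20.6 CPM in naive and at 8.73, 10.6, 13.3, 9.90 and 8.08 CPM in bleomycin libraries (log2 fold change -1.05, SE 0.21, edgeR adjusted p 0.00157). Its exons share 652 bases with Acp2 on the opposite strand.

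The calls of Cdkn1a, Psrc1, Tap1, Sesn2, Sulf2 and Ddb2 held in all 15 alternatives. The other 6 calls (Bax, Fas, Gtse1, Ei24, Tnfrsf10b and Polk) were each lost in at least 1. Tnfrsf10b and Polk lost theirs in 9 each, Fas in 4, and Bax and Ei24 in 1 each. That of Gtse1 was lost in 3 of the 11 in which it was tested. Fas lost its call without naive replicate 2, 3 or 4 (adjusted p from 0.0520 to 0.0562) and Gtse1 without naive replicate 2 or 3 (0.0634 and 0.0597). The Gtse1 call was also lost by limma-voom (0.0553). Without naive replicate 2 all 6 were lost and the count was 6 of 29, and over the single libraries left out the count ran from 6 to 14. Of the best-known pro-apoptotic targets, Bax, a pore-forming protein of mitochondria, rose by 0.90 on the log2 scale (SE 0.24, edgeR adjusted p 0.0121; 0.0566 without naive replicate 2), and Bbc3, an inhibitor of survival proteins at mitochondria, did not pass.

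**Figure D4:**
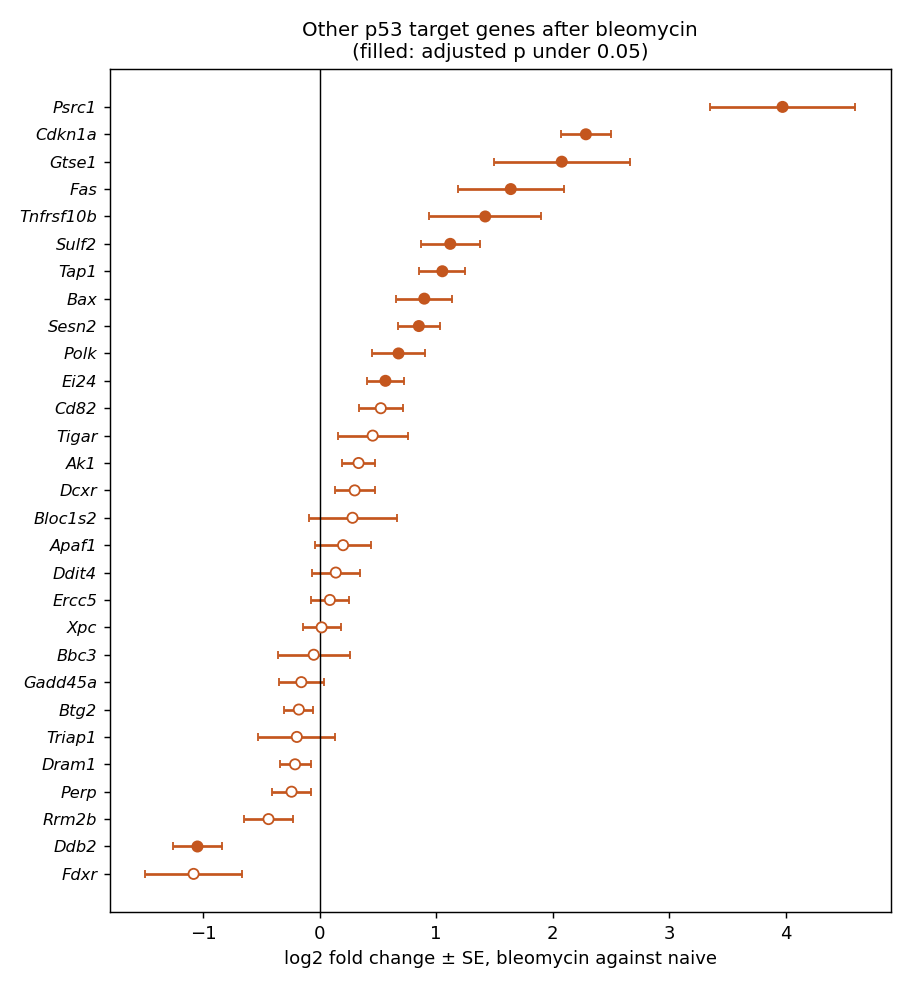
Log2 fold change ± SE, bleomycin against naive, of the 29 other p53 targets tested, ordered by value, with filled points for an adjusted p under 0.05. Psrc1 at 3.97 and Cdkn1a at 2.29 lead the 11 that rose, and Ddb2 at -1.05 is the filled point below 0.

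After ISRIB 27 of the 31 were tested and 1 was called, Perp, lower, against 1.1% of all genes tested called lower. The list's median log2 fold change was 0.045. Perp, a desmosome protein, was at 50.1, 45.3, 44.5 and 47.1 CPM after vehicle and at 40.2, 27.6, 38.5 and 32.5 CPM after ISRIB. Every ISRIB library was below every vehicle library. The log2 fold change was -0.43 (SE 0.10, edgeR adjusted p 0.0271). The call was lost without vehicle replicate 1, 2 or 4 or ISRIB replicate 2 or 4, with adjusted p-values from 0.0538 to 0.100. Cdkn1a was not called after ISRIB (log2 fold change 0.09, SE 0.06, edgeR adjusted p 0.525).

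Of 22 genes that regulate p53, 19 were tested after bleomycin, of which 1 rose and 4 fell, beside 11.2% and 9.31% of all genes tested. The median log2 fold change was -0.16. Cdkn2a, Trp63 and Trp73 were below the filter, and Chek2 passed it only through the bleomycin libraries. Chek1 passed it through 2 naive and 3 bleomycin libraries together. Mdm4, the partner of Mdm2 that holds p53 inactive, fell from 111, 116, 122 and 127 CPM in naive libraries to 115, 74.0, 69.1, 81.4 and 72.7 CPM after bleomycin. Bleomycin replicate 1 lay within the naive range and the other 4 below it (log2 fold change -0.54, SE 0.14, edgeR adjusted p 0.0104). Atm, the kinase that signals DNA breaks to p53, fell by 0.62 (SE 0.14, edgeR adjusted p 0.00468). Sirt1, a p53 deacetylase, fell by 0.54 (SE 0.18, edgeR adjusted p 0.0419), and Ppp1r13b, a p53 cofactor for apoptotic targets, fell by 0.48 (SE 0.13, edgeR adjusted p 0.0128). Chek2, the kinase downstream of Atm, rose by 2.16 (SE 0.61, edgeR adjusted p 0.0156), from 18 counts in all naive libraries to 140 in all bleomycin libraries, and its groups overlapped. The calls of Mdm4 and Atm held in all 15 alternatives. Sirt1 lost its call without any 1 of the naive libraries or without bleomycin replicate 2, 4 or 5 (adjusted p from 0.0524 to 0.105). The Sirt1 call was also lost with no filter on low counts, at 0.0534. Chek2 lost its call without naive replicate 1 or 2, at 0.0525 and 0.0581, and by limma-voom, at 0.0628. Ppp1r13b lost its call without naive replicate 1, at 0.0515. After ISRIB 19 were tested by edgeR and none was called, beside 2.2% of all genes tested; 4 had an unadjusted p under 0.05, as had 1934 of all 12054 genes.

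The close relatives of the 10 genes were read beside them. Of 14, 11 were tested after bleomycin, of which 4 rose and 3 fell, beside 11.2% and 9.31% of all genes tested, and the median log2 fold change was 0.42. Sesn2 is also among the other targets and Mdm4 among the regulators, so both are counted in 2 lists. Ccng2, the other cyclin G gene, fell by 0.82 (SE 0.19, edgeR adjusted p 0.00428) while Ccng1 rose. Within each library the ratio of Ccng1 to Ccng2 counts was 1.51 to 2.61 in naive and 11.5 to 24.5 in bleomycin libraries. Sesn2 rose by 0.85 (SE 0.18, edgeR adjusted p 0.00246), and the Sesn1 to Sesn2 ratio was 0.571 to 1.05 in naive and 0.226 to 0.442 in bleomycin libraries. The Sesn1 to Sesn3 ratio was also without overlap, at 0.255 to 0.481 and 0.126 to 0.250.

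The ratio of Mdm2 to Mdm4 was 0.365 to 0.501 in naive and 0.570 to 1.17 in bleomycin libraries, without overlap, although Mdm2 alone was not called. Trp53inp2, the autophagy-linked relative of Trp53inp1, rose by 0.70 (SE 0.10, edgeR adjusted p 1.21e-04). The ratio of Trp53inp1 to Trp53inp2 overlapped in full, at 0.397 to 0.536 and 0.364 to 0.537. These ratios were taken after the levels were known and have no test.

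**Figure D5:**
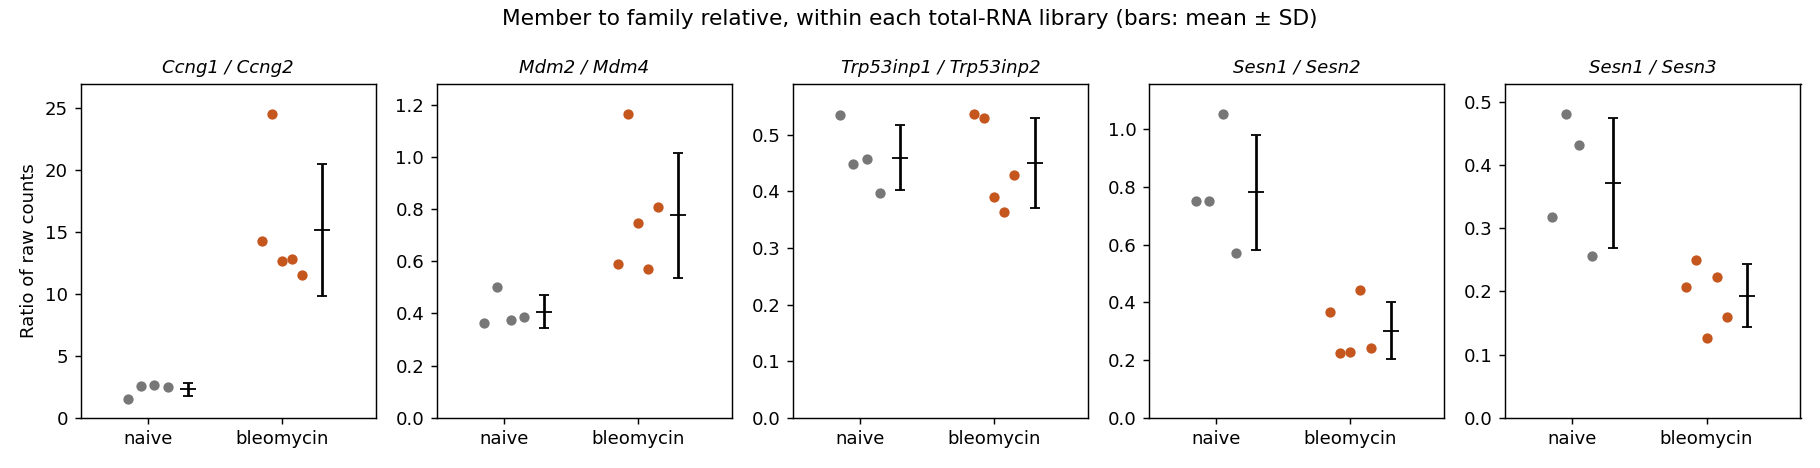
Ratio of raw counts of a p53 target to a family relative (vertical axes, linear from 0, scaled per pair) in each of the 4 naive and 5 bleomycin total-RNA libraries, with the mean ± SD. The Ccng1 to Ccng2 ratio goes from at most 2.61 in naive libraries to at least 11.5 after bleomycin, and the Trp53inp1 to Trp53inp2 ratios overlap.

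Of the polo-like kinases, Plk1, a mitotic kinase, had a log2 fold change of 2.18 (SE 0.70, edgeR adjusted p 0.0316) from 12 naive and 110 bleomycin counts, having passed the filter only through the bleomycin libraries, and Plk4, a kinase of centriole duplication, had 1.02 (SE 0.35, edgeR adjusted p 0.0438). Both calls were lost without naive replicate 2 (0.102 and 0.132), 3 or 4, and that of Plk4 in all but bleomycin replicates 3 and 4 of the single libraries left out. The Plk4 call was also lost by limma-voom (0.0851) and with no filter on low counts (0.0667). Plk1 and Gtse1 were below the filter, and so not tested, without bleomycin replicate 1, 2, 3 or 5. Zmat1, a zinc-finger relative of Zmat3, fell by 0.96 (SE 0.27, edgeR adjusted p 0.0182; 0.0674 without naive replicate 4 and 0.0515 without naive replicate 1). After ISRIB all 14 relatives were tested by edgeR and none was called, with 0 at an unadjusted p under 0.05 and every ratio overlapping between the groups.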

How the data were processed

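RNA was isolated with the PicoPure kit and libraries were sequenced on an Illumina NextSeq, per the labels' protocols. The authors deposited raw counts of reads for each Ensembl gene, 1 table per kit. Per the submitters' processing notes, bcl2fastq 2.19.1, FastQC, Trimmomatic 0.36, STAR 2.6.0, HTSeq 0.11.2 and the build mm10 were used. The annotation release and strand setting were not given in the sources used here. Libraries were grouped by the labels.

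Symbols, positions and exon lengths came from GENCODE M21 (GRCm38), which held 42546 of the 43430 IDs. Within each table, low genes were removed by filterByExpr (a count of 10, a total of 15), and the rest given TMM factors, and fitted by group alone in edgeR 4.0.16 (R 4.3.3). The quasi-likelihood F test was two-sided, with a Benjamini-Hochberg adjustment across every gene tested and calls at an adjusted p under 0.05. The SE is the unshrunk log2 fold change over the root of F. CPM and RPKM use effective library sizes and merged exon lengths. The procedure was checked on simulated data. Variation between replicate libraries beyond counting error (common BCV) was 7.66% for ISRIB and 21.1% for bleomycin, and may be technical in part. Replicate pairs differed by more than counting error, and each library was counted once. That excess does not show that the libraries came from separate animals.

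Alternatives were DESeq2 1.42.0, limma-voom 3.58.1, other size factors, no filter, a replicate block and each library left out. Their use on listed genes other than the 10 was chosen after seeing the data. From each list the text names called genes, up to the 4 with the largest absolute log2 fold change per direction with a mean of at least 1 CPM, plus Cdkn1a; other names (Bax, Bbc3 and those in counts) were chosen after their values were seen. The 10 genes and all lists were chosen with earlier results of these data known. Intervals on counts are exact at 95% and cover counting error only.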

Additional observations from a re-analysis of the deposited data

Results flagged for a closer look

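Among 75 groups of 4 or 5 libraries screened, 1 library stood apart from the rest of its group in 4, where chance alone gives about 1 in 20 groups. Ccng1 in bleomycin replicate 2 was at 278.6 CPM, with the nearest other bleomycin library at 184.6 CPM. Mdm4 in bleomycin replicate 1 was at 114.8 CPM, with the nearest other at 81.4 CPM. Fas in naive replicate 1 was at 2.68 CPM, with the nearest other at 1.50 CPM. Eda2r in vehicle replicate 3 was at 0.197 CPM, from 3 counts, with the other vehicle libraries at 0.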

How the results depend on the processing

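Among the 10 genes, 5 were called after bleomycin and 0 after ISRIB. The bleomycin count was 5 or 6 in all 15 alternatives, with Trp53 or Eda2r as the added gene, and the ISRIB count was 0 in all 14. The directions of the 5 genes that rose after bleomycin held in all 15. After ISRIB log2 fold changes near 0 changed sign for 4 genes: Phlda3 to 0.0011 by limma-voom, 0.023 without vehicle replicate 1, 0.083 without vehicle replicate 4 and 0.052 without ISRIB replicate 4 (-0.13 to 0.083 over the 8 libraries left out in turn, as are the ranges that follow); Trp53 to -0.013 without vehicle replicate 2 and -0.016 without ISRIB replicate 2 (-0.016 to 0.10); Ccng1 to 0.023 without vehicle replicate 4 and 0.0057 without ISRIB replicate 2 (-0.076 to 0.023); and Mdm2 to 0.040 without ISRIB replicate 4 (-0.11 to 0.040). No adjusted p of these was under 0.05.

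Over all genes, ISRIB called 265, or 648 with no filter on low counts (22120 genes tested), and 86 to 269 with 1 library left out: 86 without vehicle replicate 1, 102 without vehicle replicate 2 and 159 without ISRIB replicate 4. The bleomycin count of 2304 ran from 1554 to 2584 with 1 library left out. Of the other p53 targets, 0 to 1 were called after ISRIB and 6 to 14 after bleomycin with 1 library left out, with 6 without naive replicate 2. The cause was not tested. Same-numbered libraries did not deviate together, with correlations of -0.109 to 0.085 (ISRIB) and -0.039 to 0.047 (bleomycin). With the replicate number as a block, 277 and 2187 genes, 0 and 5 of the 10 genes and 1 and 10 of the other targets were called. The blocked call was lost for Fas, Tnfrsf10b, Polk, Plk1 and Plk4. Depth limits genes with few naive counts, such as Eda2r (0) and Phlda3 (21).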
